A study of Bos taurus with 12 samples.

Results

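The comparison described here sets the day 14 endometrium of heifers that later carried a transferred embryo to the birth of a calf against that of heifers that did not become pregnant. Its members are 6 of the 12 arrays in the study, 3 titled CDd14 and 3 titled NPd14, chosen by these titles and numbered by the replicate number in the title. In CDd14 the name and the replicate number of 1 title disagree, and that array is called pool 3 here after its replicate number. All animals were Simmental heifers, sampled by endometrial biopsy at day 7 or day 14 of the oestrous cycle that preceded the transfer cycle, so that no embryo was present. In the following cycle every heifer received part of a biopsied embryo. NP stands for no pregnancy, with a return to heat, and CD for a pregnancy that ended in calf delivery. Each array carries RNA of a pool of endometrial samples, and the sources used here do not give the number of heifers in a pool, their age, or whether a heifer is in pools of both days. Because nothing says how the pools of a group were made up, the p-values below measure only the spread between these pools. The outcome was known only after the biopsy and also depends on the embryo, so NP and CD describe what followed and not a treatment.

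At day 14 of the cycle the bovine endometrium is under progesterone from the corpus luteum, and its glands secrete the proteins, lipids, sugars and amino acids that feed a free-living embryo before it attaches. The same tissue makes prostaglandins, which end the cycle when no embryo signals its presence, and carries a resident population of immune cells below the epithelium. A biopsy holds surface and glandular epithelium, stroma, vessels and immune cells in proportions that can vary between samples. In such bulk RNA, fewer cells of a type and less RNA per cell cannot be told apart.

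All values are log2 expression, and a difference is CDd14 minus NPd14 on the log2 scale with its standard error from limma over all 12 arrays. Epithelial markers were present on all 6 arrays: the adhesion molecule EPCAM stood at 15.25 to 15.50 and the keratin KRT18 at 10.92 to 11.65. The array medians were 4.94 to 5.06, and 54.3% to 54.7% of the probe sets on each day 14 array were above the filter. The difference between 3' and 5' probe sets of the control transcripts, which grows when RNA is shorter, amounted to 2.41, 2.12 and 2.42 for NPd14 (pools 1, 2 and 3, the order kept throughout) against 2.05, 1.84 and 2.0 for CDd14. The groups did not overlap on it, and its part in the differences below was not tested. The same difference for transcripts added at labelling was 5.46, 5.22 and 5.45 in NPd14 and 5.26, 5.11 and 5.02 in CDd14, with overlap.

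Few transcripts passed the test at day 14. Of 13449 probe sets, 3 passed at a Benjamini-Hochberg adjusted p under 0.05 (0.0223%), all lower in CDd14, and 993 (7.38%) had an unadjusted p under 0.05. BRWD1, a bromodomain and WD repeat protein that reads chromatin, stood at 7.71, 7.55 and 7.77 in NPd14 and at 6.66, 6.75 and 6.62 in CDd14. All NPd14 pools were above all CDd14 pools, and the spread within each group was small (SD 0.11 and 0.07, n = 3). BRWD1 fell by 1.0 ± 0.12, a 2.0-fold difference (limma adjusted p = 0.0236). Its other kept probe set stood at 6.08, 5.92 and 6.79 in NPd14 and at 5.63, 5.99 and 5.93 in CDd14, where the groups overlapped and the difference was -0.41 ± 0.26 (limma adjusted p = 0.782). The call did not hold under several alternatives: the adjusted p was 0.0579 with a stricter filter, 0.0587 with trended and robust moderation, 0.0509 after quantile normalization, 0.384 with only the arrays of day 14 and 0.608 for the mean of both probe sets (-0.71). It was 0.164 without NPd14 pool 1, 0.114 without NPd14 pool 3, and 0.0938, 0.0636 and 0.0975 without CDd14 pools 1, 2 and 3.

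Among genes, each represented by its brightest probe set, BRWD1 was the 1 of 6781 that passed (0.0147%). A probe set without a gene name in the annotation stood at 6.0, 6.08 and 6.13 in NPd14 and at 4.68, 4.53 and 4.77 in CDd14, and fell by 1.41 ± 0.16 (limma adjusted p = 0.0236). A dim probe set assigned to SLC25A12, a mitochondrial aspartate and glutamate carrier, stood at 4.75, 4.96 and 4.92 in NPd14 and at 3.43, 3.36 and 3.33 in CDd14, and fell by 1.5 ± 0.17 (limma adjusted p = 0.0236). In both the groups lay far apart relative to their spread. The brighter probe set that represents SLC25A12 gave 8.38, 8.95 and 7.81 in NPd14 and 8.92, 8.27 and 8.41 in CDd14, so the groups overlapped there (0.16 ± 0.36, limma adjusted p = 0.966).

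The 4 genes with the next smallest p missed the threshold, although their pools did not overlap. SLC52A3, a riboflavin transporter, stood at 2.37, 2.94 and 3.19 in NPd14, all under the filter of 4, and at 7.28, 5.47 and 5.44 in CDd14. It was higher by 3.24 ± 0.42 (limma adjusted p = 0.0558), and all 6 day 7 arrays were low for it too, with group means of 2.26 and 2.18. Without CDd14 pool 1, the highest pool, the difference was 2.63 and the limma adjusted p 0.0079. With any other day 14 pool left out, the difference was 3.0 to 3.55 and the limma adjusted p 0.0636 to 0.257. SLC37A1, which exchanges sugar phosphates across the membrane of the endoplasmic reticulum, stood at 9.85, 9.91 and 9.65 in NPd14 and at 8.85, 8.78 and 8.98 in CDd14 (-0.93 ± 0.13, limma adjusted p = 0.0771). GPALPP1 stood at 4.57, 4.93 and 5.01 in NPd14 and at 3.99, 3.96 and 3.94 in CDd14, at the filter (-0.88 ± 0.13, limma adjusted p = 0.0870). SFRS18, a nuclear serine and arginine rich protein, stood at 9.13, 8.93 and 9.38 in NPd14 and at 8.07, 7.98 and 8.31 in CDd14 (-1.03 ± 0.16, limma adjusted p = 0.123).

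Beyond these, the pools are described by whether the 3 CDd14 values and the 3 NPd14 values overlap. Of 6781 genes, 329 had all CDd14 pools above all NPd14 pools (4.85%) and 388 had all of them below (5.72%), together 10.6%. The median difference over all genes was 0.03, and 55.4% of genes were higher in CDd14. The genes that follow are the 12 largest differences in each direction among non-overlapping genes with a group mean above 6, and apart from SLC52A3 their adjusted p lay between 0.123 and 0.676.

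Genes of small molecule transport and intermediary metabolism were among those higher in CDd14. SLC27A2, which activates and takes up very long chain fatty acids, stood at 6.98, 8.40 and 2.95 in NPd14 and at 10.29, 8.49 and 9.53 in CDd14. NPd14 pool 3 was far below the rest, and NPd14 pool 2 was just under CDd14 pool 2. The difference was 3.32 ± 1.16 (limma adjusted p = 0.554), and 1.74 without NPd14 pool 3. SLCO3A1, an organic anion transporter, stood at 4.47, 6.31 and 3.72 in NPd14 and at 9.20, 7.49 and 6.82 in CDd14 (3.0 ± 0.72). ASS1, the argininosuccinate synthase of arginine synthesis, stood at 7.27, 7.16 and 7.45 in NPd14 and at 11.63, 8.22 and 9.90 in CDd14 (2.62 ± 0.74). For ASS1 the NPd14 pools were close together and the CDd14 pools spread over a wide range. HSD17B13, a lipid droplet protein of the hydroxysteroid dehydrogenase family, stood at 12.38, 12.94 and 10.56 in NPd14 and at 13.13, 14.57 and 13.90 in CDd14 (1.91 ± 0.56). Its dimmer probe set did not overlap either, with 4.85, 4.82 and 2.78 in NPd14 and 6.13, 8.68 and 7.20 in CDd14 (3.19 ± 0.69, limma adjusted p = 0.291).

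The remaining higher genes have various roles. MAPK10, a stress-activated kinase of the JNK group, stood at 4.20, 5.62 and 4.04 in NPd14 and at 5.85, 7.81 and 6.84 in CDd14 (2.22 ± 0.56). PDPN, podoplanin, a mucin-type membrane glycoprotein, stood at 8.80, 10.13 and 7.29 in NPd14 and at 10.30, 11.54 and 11.00 in CDd14 (2.21 ± 0.63). FGF2, a fibroblast growth factor, stood at 6.58, 6.57 and 5.98 in NPd14 and at 7.47, 7.98 and 7.53 in CDd14 (1.28 ± 0.35). In MAPK10 and PDPN the highest NPd14 pool was pool 2 and lay close to CDd14 pool 1, while FGF2 had a clear gap between the groups. EIF4E3, of the cap-binding translation factors, was higher by 1.33 ± 0.34, PRUNE2 by 2.03 ± 0.62, PLAC8A by 2.02 ± 0.92 and the uncharacterised LOC767968 by 2.38 ± 0.76. Without NPd14 pool 3 the difference was 1.21 for HSD17B13, 1.30 for PLAC8A and 1.57 for LOC767968. NPd14 pool 3 was the lowest of the 6 pools in 10 of these 12 genes, all but SLC52A3 and ASS1.

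Among the 12 genes lower in CDd14, GJA1 had the smallest p. GJA1, connexin 43, forms the gap junctions that couple stromal cells, and stood at 9.64, 9.30 and 10.10 in NPd14 and at 6.41, 6.45 and 6.18 in CDd14. All 3 NPd14 pools were far above all 3 CDd14 pools, with little spread in either group. It was lower by 10.1-fold, a difference of -3.33 ± 0.54 (limma adjusted p = 0.123), and the difference was -3.12 to -3.52 when any 1 of the 6 pools was left out. HOXA9, a homeobox factor that patterns the reproductive tract, stood at 7.39, 7.30 and 8.29 in NPd14 and at 5.48, 3.65 and 5.39 in CDd14 (-2.82 ± 0.61, limma adjusted p = 0.291). SCARA5, a scavenger receptor that takes up ferritin, stood at 9.40, 9.41 and 8.38 in NPd14 and at 6.36, 5.18 and 7.21 in CDd14 (-2.81 ± 0.49, limma adjusted p = 0.182).

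LPL, lipoprotein lipase, which frees fatty acids from circulating lipoproteins, stood at 6.83, 9.90 and 8.48 in NPd14 and at 5.67, 6.17 and 5.90 in CDd14 (-2.49 ± 0.91). PRODH, the enzyme that begins proline breakdown, stood at 6.07, 8.94 and 6.24 in NPd14 and at 5.26, 4.40 and 4.99 in CDd14 (-2.20 ± 0.76, and -1.27 without NPd14 pool 2). For both, NPd14 pool 2 was the highest pool and the CDd14 pools were close together. ID1, an inhibitor of basic helix-loop-helix factors and a target of bone morphogenetic protein signalling, stood at 10.49, 9.35 and 10.71 in NPd14 and at 7.81, 8.38 and 9.14 in CDd14 (-1.74 ± 0.41). Its relative ID3, not one of these 12 genes but of the immediate early list, stood at 8.91, 7.74 and 9.91 in NPd14 and at 7.49, 7.70 and 7.55 in CDd14 (-1.27 ± 0.41, and -0.74 without NPd14 pool 3), with NPd14 pool 2 barely above the highest CDd14 pool. DEFB4A, a beta-defensin, stood at 8.78, 6.89 and 9.74 in NPd14 and at 4.14, 5.11 and 6.73 in CDd14 (-3.14 ± 0.93). MAL, a raft protein of apical transport in epithelia, was lower by 2.11 on the log2 scale, from 8.31, 8.42 and 9.13 to 7.41, 5.81 and 6.30. The other genes of this group were LOC524810 (-3.62 ± 1.12), DAPL1 (-2.90 ± 0.76), the membrane protein SUSD2 (-2.42 ± 0.64) and LOC508666 (-2.04 ± 0.53).

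**Figure D1:**
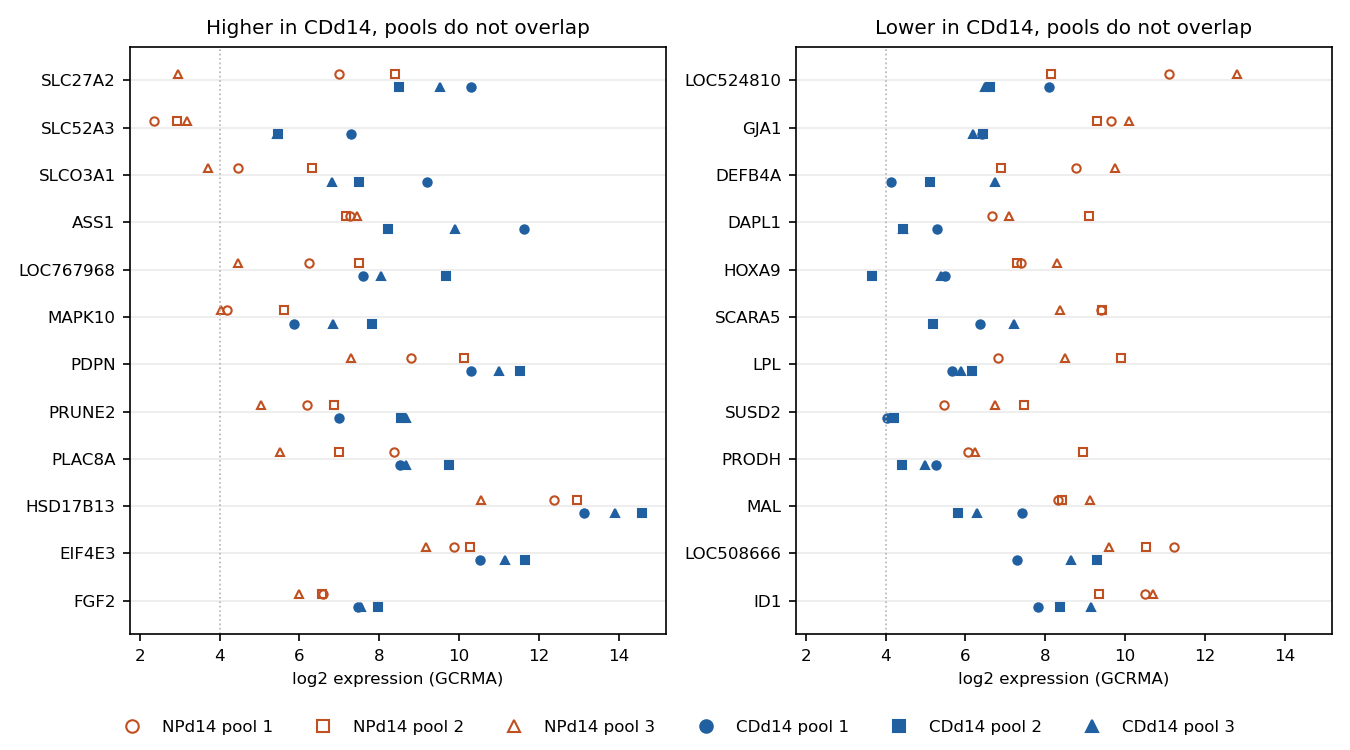
Log2 expression (GCRMA, horizontal axis) of the 12 genes with the largest positive and the 12 with the largest negative difference at day 14 whose pools do not overlap, 1 point per pool, open for NPd14 and filled for CDd14, with shape for the pool number and a dotted line at the filter of 4. GJA1 shows tight groups far apart (9.30 to 10.10 against 6.18 to 6.45), while in SLC27A2 NPd14 pool 3 at 2.95 lies far from the other NPd14 pools.

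Proteins that the uterus secretes did not move together. Of 27 measured genes of uterine secretions 10 were higher and 17 lower in CDd14, with a median of -0.07, and 0 passed the test. SERPINA14, the uterine milk protein, stood at 8.25, 9.05 and 3.48 in NPd14 and at 11.39, 8.11 and 11.15 in CDd14, so that CDd14 pool 2 lay below both higher NPd14 pools (3.29 ± 1.33, limma adjusted p = 0.616, and 1.57 without NPd14 pool 3). SPP1, osteopontin, a secreted ligand of integrins, stood at 13.97, 10.22 and 13.93 in NPd14 and at 7.15, 10.27 and 11.25 in CDd14. Its lowest pool was CDd14 pool 1, NPd14 pool 2 lay among the CDd14 pools, and the difference was -3.15 ± 1.14 (limma adjusted p = 0.576), and -1.95 without CDd14 pool 1. RBP4, which carries retinol, overlapped as well (4.02, 6.98 and 1.94 against 6.96, 5.74 and 4.41). Pools did not overlap for CTSK, the protease cathepsin K, which was lower in CDd14 (9.04, 7.06 and 7.71 against 5.61, 6.57 and 6.59, -1.68 ± 0.49), for ANPEP, aminopeptidase N (-0.83 ± 0.32), and for LTF, lactoferrin (-0.15 ± 0.11). These were the only ones of the 27 without overlap, and 5.72% of all genes were lower without overlap.

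Hormone receptors gave small differences or were too dim to read. The oxytocin receptor OXTR, through which oxytocin drives prostaglandin release, stood at 9.43, 10.72 and 9.75 in NPd14 and at 10.42, 10.50 and 10.49 in CDd14 (0.50 ± 0.43, limma adjusted p = 0.869). The NPd14 pools enclosed the CDd14 pools. The membrane progesterone receptor component PGRMC1 differed by 0.33 ± 0.19. The probe sets of PGR, the nuclear progesterone receptor, and ESR1, the oestrogen receptor alpha, stood at 2.11 to 2.16 and at 1.59 to 1.63 over all 12 arrays, and those of the Wnt antagonist DKK1 at 1.92 to 2.06, so none of them was kept and no difference is given. HSD11B1, which regenerates active glucocorticoid, stood at 5.84, 8.63 and 3.52 in NPd14 and at 10.01, 8.49 and 8.55 in CDd14 (3.02 ± 1.28, limma adjusted p = 0.644), with NPd14 pool 2 inside the CDd14 range, and the difference was 1.78 without NPd14 pool 3.

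In the prostaglandin pathway 3 of 13 measured genes were lower without overlap (23.1%, against 5.72% of all genes) and 0 passed the test. PTGIS, prostacyclin synthase, stood at 7.94, 8.14 and 7.88 in NPd14 and at 6.48, 6.53 and 6.88 in CDd14 (-1.36 ± 0.35, limma adjusted p = 0.398). Both groups were tight and a gap of about 1 separated them. PTGER4, a receptor of prostaglandin E2, was lower by less (9.57, 10.25 and 9.47 against 8.72, 8.81 and 9.09, -0.88 ± 0.45), and PTGDS was dim (2.90 to 4.06). PTGER2, another receptor of prostaglandin E2, overlapped (5.02, 6.02 and 4.58 against 6.59, 5.64 and 6.18). PTGS2, the inducible cyclooxygenase, stood at 11.23, 11.58 and 1.80 in NPd14 and at 11.78, 9.80 and 11.75 in CDd14, with NPd14 pool 3 far below the other 5. The difference was 2.90 ± 2.47, and -0.30 without that pool. The list's median was 0.23 and, without NPd14 pool 3, -0.16.

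Nutrient supply genes were mixed. Of 21 measured solute carriers 1 was higher (4.76%, against 4.85% of all genes) and 4 were lower without overlap (19.0%, against 5.72%), and the median was 0.01. SLC7A1, a carrier of basic amino acids, stood at 7.78, 8.14 and 7.74 in NPd14 and at 7.44, 7.33 and 7.05 in CDd14 (-0.61 ± 0.15, limma adjusted p = 0.398). SLC1A5, a glutamine carrier, was lower by 0.42 on the log2 scale and SLC39A8, a carrier of zinc and other metals, by 1.5, both without overlap. The glucose transporters SLC2A1 (11.08, 12.34 and 8.55 against 12.74, 10.65 and 11.73) and SLC5A1 (12.02, 12.95 and 8.61 against 12.98, 11.26 and 12.45) overlapped, with NPd14 pool 3 lowest in each. Of 28 genes of lipid uptake, storage and synthesis 20 were lower (median -0.06). Besides LPL, the pools did not overlap for ACSL3, which activates long chain fatty acids (-0.48 ± 0.22), and ELOVL5, which elongates polyunsaturated ones (-0.54 ± 0.26). These and LPL were the only ones of the 28 without overlap, and 5.72% of all genes were lower without overlap. Both other kept probe sets of ACSL3 overlapped (-0.60 ± 0.39 and -0.38 ± 0.26). Of 22 growth factor, activin and Wnt genes, FGF2 was higher, and IGFBP6 (9.53, 10.18 and 9.51 against 7.89, 9.12 and 7.61, -1.53 ± 0.44) and IGF2R (-0.32 ± 0.18), which both bind insulin-like growth factor 2, were lower without overlap. Over all genes these shares were 4.85% higher and 5.72% lower. The other kept probe set of IGF2R overlapped (-0.30 ± 0.21). MSTN, myostatin, stood at 10.15, 9.78 and 3.30 in NPd14 and at 10.04, 9.16 and 11.00 in CDd14, again with NPd14 pool 3 apart.

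Several genes of splicing and RNA binding were lower in CDd14. Of 54 measured genes 11 were lower without overlap (20.4%, against 5.72% of all genes) and 2 higher (3.70%, against 4.85%), 10 had an unadjusted p under 0.05 and all 10 of them were lower (18.5%, against 3.45% of all genes), and 0 passed after adjustment. The list's median of -0.04 shows that most of its genes hardly differed. Besides SFRS18, the largest differences were in PNISR (11.14, 10.45 and 11.15 against 9.98, 9.95 and 10.03, -0.92 ± 0.22, limma adjusted p = 0.330), PRPF38B, a pre-mRNA processing factor (9.91, 9.97 and 9.55 against 9.22, 9.14 and 9.02, -0.68 ± 0.14, limma adjusted p = 0.258) and SFPQ, a nuclear RNA-binding protein of splicing and paraspeckles (10.47, 10.33 and 10.51 against 9.73, 9.95 and 9.999, -0.54 ± 0.12, limma adjusted p = 0.306). SFRS18 is an older name of PNISR, and the annotation gives them separate entries, so they may be the same gene counted in both places. The other kept probe set of PRPF38B overlapped (-0.22 ± 0.14). The remaining lower genes differed by 0.13 to 0.32: LUC7L and SF3B1, components of small nuclear ribonucleoproteins, SON and SRSF11, serine and arginine rich proteins, RBM5, HNRNPH1 and HNRNPDL. HNRNPM and SRSF3 were higher by 0.12 and 0.17. The 3' minus 5' value of the control transcripts was also lower in all CDd14 pools, and its part in these values was not tested.

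**Figure D2:**
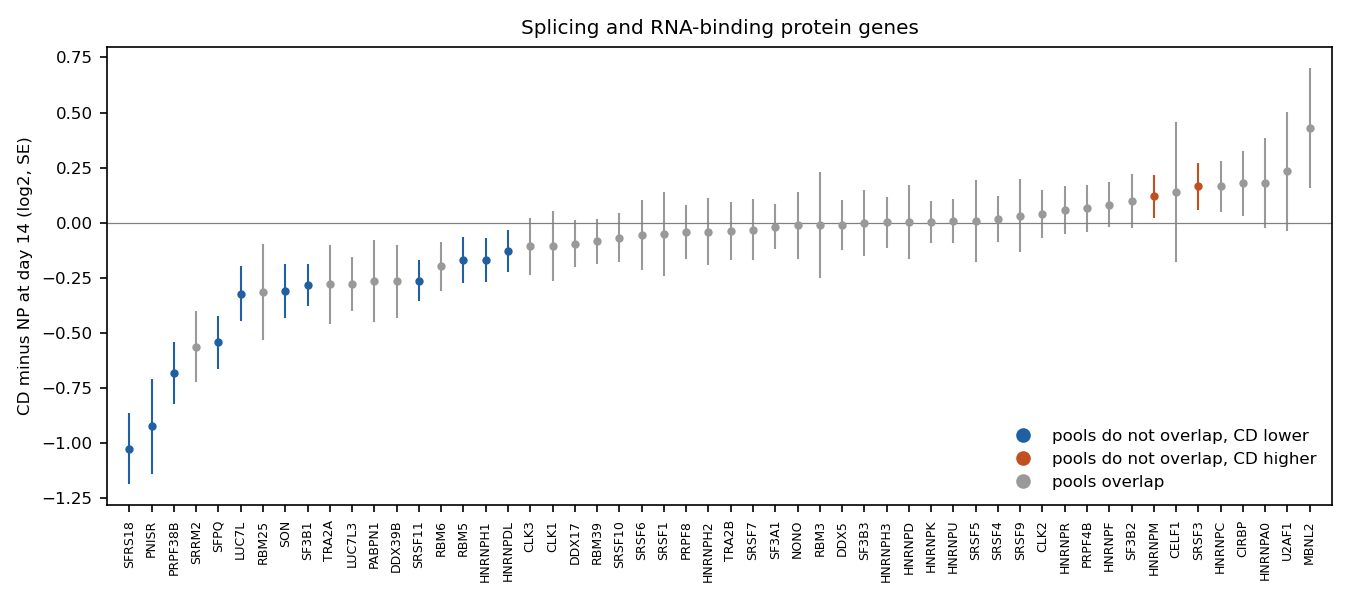
Difference CDd14 minus NPd14 (log2, vertical axis) with its standard error for each of the 54 measured splicing and RNA-binding protein genes, ordered by the difference, with colour for genes whose pools do not overlap. The lowest gene is SFRS18 at -1.03, 11 genes are lower and 2 are higher without overlap, and most of the others lie near 0.

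Genes of cilia, the motile structures of a part of the surface epithelium, were higher on average in CDd14 but varied between pools. Of 21 measured genes 20 were higher (against 55.4% of all genes), with a median of 0.64, while 0 passed the test and 0 had pools that did not overlap. As a mean deviation from the 12 arrays, the cilia genes gave -0.74, -0.32 and -1.46 for NPd14 against -0.62, 0.68 and 0.03 for CDd14. CDd14 pool 1 thus lay inside the NPd14 range. SPAG6, of the central apparatus of the axoneme, stood at 6.38, 7.12 and 4.59 in NPd14 and at 6.78, 9.15 and 7.99 in CDd14 (1.95 ± 0.72, and 1.23 without NPd14 pool 3), and the radial spoke protein RSPH9 at 6.82, 7.81 and 4.45 and at 7.01, 9.37 and 8.23 (1.85 ± 0.82). In both genes the order of the 6 pools was the same, with NPd14 pool 3 lowest and CDd14 pool 2 highest. The list's median was 0.33 without CDd14 pool 2, 0.54 without NPd14 pool 3 and 0.94 without CDd14 pool 1.

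Genes of inflammation and complement were mostly lower in CDd14, with a wide spread within each outcome. Of 24 genes of neutrophil chemokines, alarmins and acute inflammation 20 were lower in CDd14 (median -0.18), 1 without overlap (4.17%, against 5.72% of all genes), and 0 passed. The alarmin S100A9 stood at 7.11, 4.53 and 5.55 in NPd14 and at 4.17, 4.14 and 4.32 in CDd14 (-1.52 ± 0.56, and -0.83 without NPd14 pool 1). The other kept probe set of S100A9 overlapped (-2.04 ± 0.85). Its partner S100A8 stood at 10.93, 8.15 and 9.82 and at 7.43, 5.94 and 8.24 (-2.43 ± 1.07), where CDd14 pool 3 just passed NPd14 pool 2. CXCL8, which draws neutrophils, stood at 12.68, 12.46 and 8.83 in NPd14 and at 9.39, 13.19 and 11.28 in CDd14, a difference of -0.04 over a wide spread in each group. The list's median was -0.79 without CDd14 pool 2 and -0.030 without CDd14 pool 1. Its mean deviation was 1.93, 0.98 and 0.17 in NPd14 and -0.12, 1.21 and 0.29 in CDd14. All 15 complement genes were lower, 0 without overlap, by a median of -0.20 that became 0.00 without NPd14 pool 2 and 0.01 without CDd14 pool 1. SERPING1, the inhibitor of the first complement component, differed by -0.83 ± 0.41.

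Most antimicrobial genes were lower in CDd14, with EBD as a large exception, and interferon genes went both ways. EBD, an enteric beta-defensin, stood at 7.36, 7.22 and 7.90 in NPd14 and at 12.34, 7.20 and 12.51 in CDd14, so pools 1 and 3 of CDd14 were high and pool 2 was at the NPd14 level (3.19 ± 1.14, limma adjusted p = 0.575). Without CDd14 pool 2 the difference was 4.93 and the limma adjusted p 0.0032. With any other day 14 pool left out, the difference was 2.28 to 3.39 and the limma adjusted p 0.396 to 0.963. The beta-defensin DEFB4A ran the other way, as given above, and SLPI, an inhibitor of secreted proteases, overlapped (11.86, 13.01 and 13.40 against 10.29, 13.12 and 10.02). In the antimicrobial list only EBD and TAP (0.22 ± 0.73) were higher in CDd14. Its median was -0.57 to -0.19 with any 1 day 14 pool left out. DEFB4A and LTF were its only genes without overlap, both lower, and 5.72% of all genes were lower without overlap. None of its genes passed the test. Of 37 interferon-stimulated genes 22 were higher (median 0.08), 3 were higher (8.11%, against 4.85% of all genes) and 2 lower without overlap (5.41%, against 5.72%), and 0 passed. Shares this near those of all genes are no result about the list, and its non-overlapping genes are given as values only. MX1, an antiviral GTPase, stood at 9.54, 9.47 and 9.20 in NPd14 and at 9.96, 9.77 and 10.17 in CDd14 (0.56 ± 0.29), and IRF9, which assembles the interferon-activated transcription complex, at 7.70, 7.53 and 7.15 and at 7.93, 7.90 and 7.98 (0.48 ± 0.20). ISG15 overlapped (9.13, 7.37 and 6.87 against 7.62, 7.63 and 7.99), and IFIT2 was lower (6.81, 4.94 and 4.58 against 4.34, 4.43 and 4.25), by -1.10 and, without NPd14 pool 1, by -0.42.

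Among 17 antigen presentation genes 13 were lower in CDd14 (median -0.11, and 0.05 without NPd14 pool 1), 0 without overlap, and 0 passed. BOLA-DQB stood at 10.53, 2.06 and 6.41 in NPd14 and at 2.11, 2.08 and 2.08 in CDd14, and BOLA-DQA5 at 10.54, 1.97 and 7.81 and at 2.0, 1.99 and 1.99. These transcripts, which encode variable class II chains that present peptides to helper T cells, were bright in NPd14 pools 1 and 3 and at background on the other 4 day 14 arrays. The same pool numbers stood out at day 7. BOLA-DQA5 stood at 7.12, 1.99 and 9.22 in NPd7 and at 2.0, 1.98 and 1.99 in CDd7. BOLA-DQB stood at 4.50, 2.15 and 7.51 in NPd7 and at 2.13, 2.32 and 2.07 in CDd7. BOLA-DRA, an invariable class II chain, overlapped with a narrower range (12.57, 10.88 and 11.18 against 10.62, 11.88 and 11.62). The genes of the DQ locus differ between cattle in number and sequence, and whether the pools' animals differ in them was not tested.

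Marker lists of cell types overlapped between the outcomes at day 14. Of 13 measured stromal fibroblast markers 12 were lower in CDd14 (median -0.61). Without overlap, 1 of the 13 was lower, against 5.72% of all genes. Their mean level ran from 7.22 to 8.71 in NPd14 and from 6.81 to 7.53 in CDd14. The highest was NPd14 pool 2, and the median was -0.10 without it. The 20 epithelial markers had a median of 0.09, 12 were higher, and their mean level ran from 10.05 to 10.31 in NPd14 and from 10.31 to 10.45 in CDd14. KRT18 was the 1 epithelial marker without overlap (11.17, 11.16 and 10.92 against 11.22, 11.65 and 11.49, 0.37 ± 0.16). Of all genes 4.85% were higher without overlap, so neither this count nor the stromal count is a result about its list. The 15 T and natural killer cell markers had a median of 0.02, with a mean level of 6.53 to 7.51 in NPd14 and 6.65 to 7.24 in CDd14, and the 7 macrophage and dendritic cell markers a median of -0.11, with 6.17 to 6.57 and 5.61 to 6.43. Among the 4 measured B and plasma cell markers JCHAIN, which joins secreted antibodies, stood at 10.93, 8.37 and 12.66 in NPd14 and at 8.62, 6.45 and 6.67 in CDd14 (-3.41 ± 1.22, limma adjusted p = 0.575), with NPd14 pool 2 below CDd14 pool 1. MYLK, 1 of 2 measured smooth muscle markers, overlapped (6.53, 8.19 and 6.37 against 4.57, 4.56 and 6.57), CLDN5, the 1 measured endothelial marker, was under 4 on all 6 arrays, and the red cell markers GYPC and AHSP differed by -0.05 each. The part of the stromal and plasma cell markers in the differences given above was not tested.

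The remaining lists had medians of -0.28 to 0.10. The 40 genes of collagens and extracellular matrix had a median of -0.28, with 2 lower without overlap (5.0%, against 5.72% of all genes), 1 of them COL15A1, a basement membrane collagen (4.11, 5.68 and 4.73 against 3.81, 3.80 and 3.51, a difference of -0.71 without NPd14 pool 2). Most genes of this list were lower in CDd14. Its median was -0.45 to -0.06 with any 1 day 14 pool left out, and -0.06 without NPd14 pool 2. The 40 cell cycle genes had a median of -0.08, and 0.13 without NPd14 pool 3. The medians were 0.10 for 75 oxidative phosphorylation genes, of which 59 were higher (-0.023 without NPd14 pool 3), 0.02 for 64 cytosolic ribosomal proteins, 0.00 for 40 heat shock and unfolded protein response genes and -0.05 for 23 immediate early genes. In none of these lists did a gene pass the test.

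**Figure D3:**
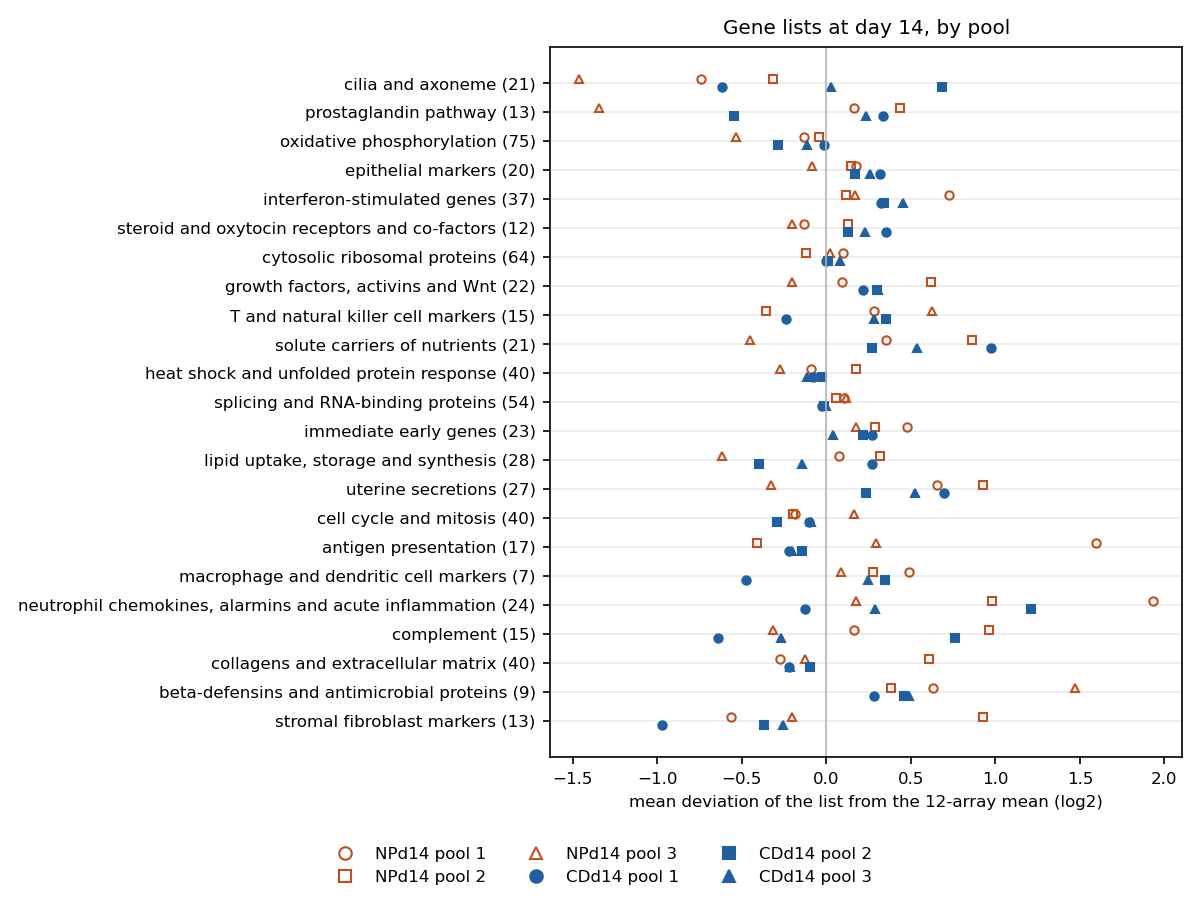
Mean deviation of each gene list from its mean over the 12 arrays (log2, horizontal axis), 1 point per day 14 pool, open for NPd14 and filled for CDd14, ordered by the median difference, with the number of measured genes in brackets. NPd14 pool 3 lies apart in cilia (-1.46) and the prostaglandin pathway (-1.34), NPd14 pool 2 in the stromal markers (0.92) and NPd14 pool 1 in antigen presentation (1.60).

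The NPd14 pools were spread more widely than the CDd14 pools for most genes, a difference that was not tested. The SD over 3 pools was larger in NPd14 for 4163 of 6781 genes (61.4%), with a median of 0.23 against 0.18. The range over 3 pools was above 2 for 336 genes in NPd14 and for 201 in CDd14, 117 of them in both. Across genes, Pearson's r between NPd14 pools 2 and 3 was 0.926, lower than between NPd14 pools 1 and 2 (0.970) and 1 and 3 (0.963), and it was 0.960 to 0.981 between CDd14 pools. Genes were then counted in which 1 pool lay more than 2 below or above all 5 other day 14 pools, and the genes named below were chosen after these values were seen. NPd14 pool 3 was the lowest by this measure in 62 genes and the highest in 2, NPd14 pool 2 the highest in 22 and NPd14 pool 1 the highest in 8, while the CDd14 pools gave 8, 4 and 1 genes in either direction.

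The genes that were low in NPd14 pool 3 included enzymes, transporters and secreted proteins. Besides PTGS2, MSTN and SERPINA14, the zinc transporter SLC39A2 stood at 5.49 in NPd14 pool 3 and at 12.21 to 13.26 in the other 5 day 14 pools. FADS2, a fatty acid desaturase, stood at 3.87 against 9.17 to 10.94, and AKR1B1, which acts as a prostaglandin F synthase in cattle, at 5.92 against 9.34 to 12.25. The enkephalin precursor PENK (2.46 against 7.24 to 8.89), the amino acid enzymes BCAT1 (6.39 against 11.20 to 12.92) and PSPH (7.25 against 12.33 to 14.20) and IGFBP1, a binding protein of insulin-like growth factors (2.19 against 6.23 to 9.50), were low as well. Of the 62 genes, 12 belong to the 669 genes (9.87%) that rose between day 7 and day 14 in CD at a limma adjusted p under 0.05. The rule that chose the 62 needs CDd14 values far above NPd14 pool 3. It favours that overlap, so the share is not read as a result. The highest genes of NPd14 pool 3 were LAP, a beta-defensin (8.03 against 3.23 to 5.48), and KRT78 (9.85 against 4.35 to 7.57).

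Of the 22 genes that were high in NPd14 pool 2, 15 belong to the 964 genes (14.2%) that fell from day 7 to day 14 in CD by the same test. The rule that chose the 22 needs CDd14 values far below NPd14 pool 2. It favours that overlap, so the share is not read as a result. EDN3, endothelin 3, stood at 10.08 in NPd14 pool 2 and at 2.66 to 4.80 in the other day 14 pools, and at 9.59 to 12.43 on the 6 day 7 arrays. The matrix genes SPARC (8.51 against 4.25 to 5.16), DCN, decorin (8.64 against 3.97 to 6.19), CCDC80 (9.04 against 4.07 to 4.68) and IGFBP7 (9.74 against 6.40 to 7.71) were high in the same pool but are not among the 15, with CD means of 4.62 at day 7 and 4.78 at day 14 for SPARC. In NPd7 these genes were high. SPARC stood there at 8.34, 8.39 and 9.04 and DCN at 7.92, 8.54 and 9.71. CCDC80 stood at 6.78, 8.37 and 7.18 and IGFBP7 at 8.44, 9.57 and 9.67. Also high and among the 15 were the mitotic genes SPC24, of the kinetochore (10.93 against 6.29 to 7.03), and CCNB1, cyclin B1 (10.10 against 5.63 to 7.46). They are the only 2 of the 40 cell cycle genes in which NPd14 pool 2 was the highest day 14 pool, and it was the lowest in 18. On a scale from 0 at the CDd7 mean to 1 at the CDd14 mean, the median over the 964 falling genes was 0.99, 0.70 and 1.09 in NPd14, and over the 669 rising genes 0.93, 0.80 and 0.91. These genes were chosen on the CD arrays, which favours values under 1 in NP, so the values are read here only between the NPd14 pools.

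NPd14 pool 1 was high in the DQ genes given above and in CXCR1, PLEK, CXCL10 and SDS. CXCR1, a receptor of CXCL8, stood at 9.36 in NPd14 pool 1, 7.19 in pool 2 and 2.03 in pool 3, and at 2.05, 5.30 and 2.04 in CDd14. PLEK, pleckstrin of platelets and leukocytes, stood at 11.43 in NPd14 pool 1 against 6.62 to 8.46. CXCL10, an interferon-induced chemokine, stood at 6.98 against 3.31 to 4.55, and SDS, serine dehydratase, at 11.59 against 5.35 to 9.59. The T cell and macrophage markers did not all peak in this pool. TYROBP did (8.88), while CD3E peaked in NPd14 pool 3 (8.77, against 7.65 in NPd14 pool 1). CD14 peaked in CDd14 pool 2 (9.64, against 8.20 in NPd14 pool 1). Among the CDd14 pools, pool 1 was lowest in SPP1 and in the chemokine CCL3 (3.50 against 6.48 to 10.66). CDd14 pool 2 was highest in CXCL14, an epithelial chemokine (8.23 against 4.25 to 4.50), and in UPK1A, a uroplakin (8.36 against 2.65 to 6.05). CDd14 pool 3 was highest in CRISPLD2 (9.31 against 3.37 to 5.73).

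**Figure D4:**
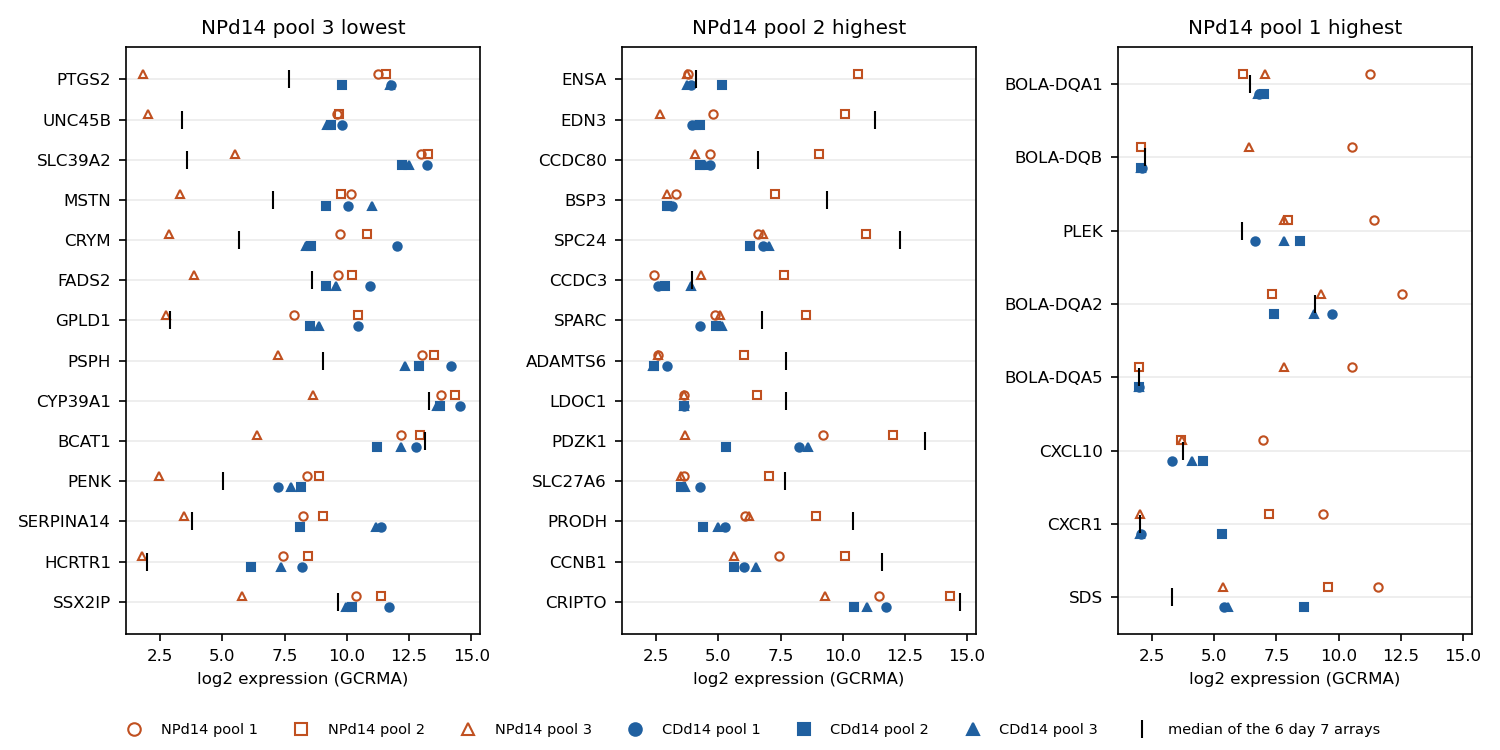
Log2 expression (GCRMA, horizontal axis) of up to 14 genes each in which NPd14 pool 3 was the lowest, NPd14 pool 2 the highest or NPd14 pool 1 the highest of the 6 day 14 pools, by more than 2, with a black tick at the median of the 6 day 7 arrays. The genes were chosen for this pattern; in EDN3 NPd14 pool 2 lies at 10.08, near the day 7 arrays, and in PTGS2 NPd14 pool 3 lies at 1.80.

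The same fit gives the outcome difference at day 7, from 6 other arrays. At day 7, 503 of 13449 probe sets passed (3.74%), and of the genes 99 were called higher (1.46%) and 137 lower (2.02%) in CD. That count was 0 to 1676 probe sets when any 1 of the 12 arrays was left out. Whether the outcome difference changed between the days was tested as an interaction, in which 0 probe sets passed (0%) and 1900 had an unadjusted p under 0.05 (14.1%), so no gene is shown to differ between the days. Of the 99 genes higher at day 7, 62 were higher at day 14 too (62.6%), and their median went from 1.0 to 0.10. Of the 137 lower genes, 99 were lower at day 14 (72.3%), and their median went from -1.0 to -0.17. Over all genes the sign was the same in 56.8%. At day 7 the pools of 16.7% of all genes lay higher in CD without overlap and those of 18.6% lower. Of the 388 genes lower at day 14 without overlap, 119 were also lower without overlap at day 7 (30.7%) and 29 higher (7.47%), and of the 329 higher genes 57 were higher (17.3%) and 37 lower (11.2%). The 2 comparisons share no array, but NP pools 2 and 3 each deviated together with the same-numbered pool of the other day. Pearson's r of the deviations across genes was 0.12, 0.62 and 0.50 for pools 1 to 3. For NPd7 pool 1 it was higher with NPd14 pool 3 (0.24) than with NPd14 pool 1. The 2 comparisons may thus not be independent.

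A small group of genes had a large outcome difference on both days, but none of them passed the test on both. With groups that did not overlap and differences above 1 on each day, 10 of 6781 genes were lower and 2 higher in CD. At day 14 none of them passed (limma adjusted p 0.123 to 0.766). At day 7 GJA1, HOXA9, SCARA5, S100A16 and COL15A1 passed, and the limma adjusted p of the others was 0.0605 to 0.220. GJA1 stood at 9.32, 9.33 and 10.39 in NPd7 and at 4.93, 6.83 and 7.32 in CDd7. The difference was -3.32 ± 0.54 (limma adjusted p = 0.0239) beside the -3.33 of day 14. HOXA9 stood at 7.42, 6.63 and 8.29 in NPd7 and at 4.54, 3.37 and 5.0 in CDd7 (-3.14), and SCARA5 at 11.17, 10.66 and 10.24 and at 7.86, 7.57 and 8.35 (-2.76). In these 3 genes every NP pool of either day was above every CD pool of either day. S100A16, a calcium-binding protein, differed by -1.75 at day 7 and by -1.37 at day 14 (5.95, 5.80 and 6.49 against 4.55, 4.80 and 4.79). IGFBP6 (-1.62 and -1.53), COL15A1 (-2.11 and -1.13), the fucosyltransferase FUT1 (-1.37 and -1.41), the pyrimidine enzyme DPYS (-1.20 and -1.34), MGC139164 (-1.40 and -1.45) and LOC508666 (-1.74 and -2.04) were lower on both days. SLCO3A1 (1.76 and 3.0) and SKA1, a spindle protein (2.54 and 1.21), were higher. At day 14 the difference was -0.46 for DPYS without CDd14 pool 2 and 0.75 for SKA1 without CDd14 pool 1. BRWD1 was lower by 0.44 at day 7 on the log2 scale, from 7.24, 7.20 and 7.26 to 6.87, 6.90 and 6.59 (limma adjusted p = 0.0562).

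In 2 genes the sign turned between the days with no overlap and a difference above 1 on each day. MAL stood at 7.87, 10.02 and 8.91 in NPd7 and at 10.13, 10.89 and 10.89 in CDd7 (1.70 ± 0.55), and was lower in CDd14 (-2.11 ± 0.55). FGF2 stood at 7.80, 6.98 and 8.0 in NPd7 and at 5.40, 6.22 and 6.61 in CDd7 (-1.52 ± 0.35, limma adjusted p = 0.0453), and was higher in CDd14 (1.28 ± 0.35). The difference between the days was -3.81 for MAL and 2.80 for FGF2, with limma adjusted p of 0.230 and 0.192.

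**Figure D5:**
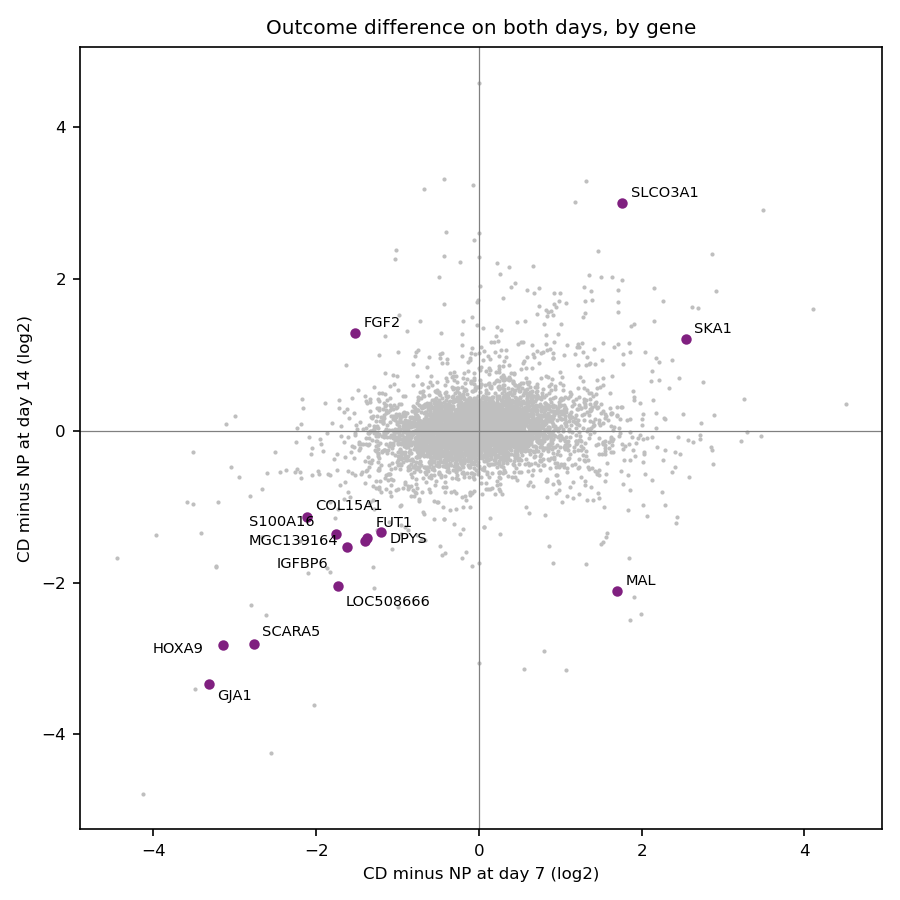
Outcome difference CD minus NP (log2) at day 7 (horizontal axis) and day 14 (vertical axis), 1 point for each of 6781 genes, with names on genes whose pools do not overlap on either day and whose differences are above 1 on both. GJA1, HOXA9 and SCARA5 lie at the lower left with differences of -2.76 to -3.33, and MAL and FGF2 lie in the quadrants of opposite sign.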

How the data were processed

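The deposited table holds log2 expression values that the authors obtained with GCRMA, per the submitters' processing notes, from bovine Affymetrix arrays hybridised with cRNA amplified from pooled biopsy RNA, per the labels' protocols. GCRMA subtracts a background estimated from probe sequence and quantile-normalizes between arrays, so unlit probe sets collapse to nearly constant low values and differences near the floor are compressed. No scanner files were used here. After removal of 112 control probe sets, 13449 of 24016 with a log2 value above 4 on at least 3 of 12 arrays were kept. Of these, 8239 carried 1 gene symbol, and each of 6781 genes is represented by its probe set with the highest mean. The number of arrays limits the precision.

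The 4 groups (day by outcome) were fitted together with limma 3.58.1 in R 4.3.3 (lmFit, eBayes), which shares 1 estimate of the spread, and p-values were adjusted by Benjamini-Hochberg over all 13449 probe sets. On simulated data with 200 of 13449 probe sets changed, the day 14 comparison recovered 53.5% at 2-fold and 85.5% at 4-fold, with 4 and 10 false calls. The simulated noise was independent between probe sets and had the same spread in all groups. It lacks the wider NPd14 spread and the deviations of whole pools, so this recovery may not hold for the real arrays. Tables used Python 3.11.15 and pandas 2.3.3. Named genes are those past the threshold or among the 5 smallest p, the 12 largest non-overlapping differences in each direction, fixed genes of luteal endometrium, and members of the 27 gene lists; genes named for a pool that stood apart were chosen after their values were seen. Members, lists and tests were chosen with earlier results of these data known. Same-numbered pools were checked for pairing: their deviations within day 14 correlated at 0.07, -0.22 and 0.13, so the numbers were not taken to pair the outcomes there. Within day 7 the same correlations were 0.02, 0.37 and 0.30. The alternatives were other filters, moderation, normalization, array weights, a replicate block, means of probe sets, day 14 alone and each array left out.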

Additional observations from a re-analysis of the deposited data

How the results depend on the processing

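The count of 3 probe sets past the threshold at day 14 was 6 without a filter and 0 with a filter of log2 above 6, with trended and robust moderation, after quantile normalization, with means of probe sets and with only the arrays of day 14, where 819, 983, 1009, 457 and 795 had an unadjusted limma p under 0.05. Leaving out 1 array gave 0 to 12: 12 without NPd14 pool 2, 5 without NPd7 pool 3, 4 without CDd7 pool 1, and 0 without NPd14 pool 1, NPd14 pool 3, CDd14 pool 3 or CDd7 pool 2. Array weights gave 3515, but their estimation did not converge and put by far the largest weight on NPd14 pool 1. Weights estimated gene by gene, added after the data were seen, gave 311 (97 higher, 214 lower). The cause was not tested.

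For the difference between the days, the count of 0 became 1 without a filter, 2825 and 503 with the same weights, and 0 to 53 with 1 array left out, with 53 without NPd7 pool 2 and 22 without CDd7 pool 1. Same-numbered pools of the 2 outcomes did not deviate together at day 14. Between the days, NP pools 2 and 3 did (0.62 and 0.50). NP pool 1 gave 0.12, below the 0.24 of NPd7 pool 1 with NPd14 pool 3. Same-numbered CD pools gave 0.21, -0.079 and 0.21. With the replicate block, 0 probe sets passed at day 14 and 0 between the days (1155 and 2361 at an unadjusted limma p under 0.05), and the adjusted p of BRWD1 was 0.116.

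The sign turned with array weights for PSMB10 (-0.046), RPL39 (-0.0092), SPARC (0.092), SLC39A2 (-0.38), UNC45B (-0.23), ENSA (0.17), PENK (-0.62), FGFBP1 (-0.17) and GCLC (0.40), and with gene by gene weights for PENK (-0.26), FGFBP1 (-0.029) and GCLC (0.25). Over 7 other settings, 0 of 923 gene values turned. The filters, the moderation, the replicate block and day 14 alone leave the difference itself unchanged. Only quantile normalization and means of probe sets could have turned a sign, so most of this count was fixed in advance. Leaving out 1 day 14 pool turned 15 genes, with ranges of -0.092 to 0.018 for AHSP, -1.35 to 0.0016 for C1R, -0.029 to 1.92 for CXCL14, -1.28 to 0.91 for CXCL8, -3.34 to 0.37 for EDN3, -0.37 to 3.19 for EFHD1, -2.93 to 0.52 for ENSA, -0.35 to 0.42 for GCLC, -0.50 to 0.63 for ISG15, -0.93 to 2.29 for PENK, -0.30 to 4.59 for PTGS2, -0.0013 to 0.31 for RPL39, -0.48 to 3.40 for SLC39A2, -0.18 to 3.66 for UNC45B and -2.37 to 0.49 for UPK1A. With 3 pools of unknown make-up in a group, differences of the size seen in most lists could not be told from the spread between pools.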
